A study of Danio rerio with 6 samples.

Results

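The genes described here are 41 genes of the zebrafish skin, 19 keratins and 22 others that build junctions, anchor the epidermis, direct its development or mark its cells. They were chosen by gene symbol from a written list, and each was represented by the transcript cluster (the set of array probes summarised as 1 value) that the platform annotation gives exactly that 1 symbol, or by the brightest of them where there were several. Of the 41, 38 had such a cluster, among 19260 genes in all: 17 keratins and 21 other skin genes. No cluster carried the symbol *krtt1c19e*, *cyt1* or *evplb*. RNA came from whole embryos at 5 days post-fertilization (dpf), in 3 arrays of *tdp1-/-* embryos and 3 of *tdp1WT* embryos. All were placed in 500 nM camptothecin (CPT), a poison of topoisomerase 1, for 16 hours from 4 dpf, so both genotypes were exposed to the drug and no DMSO-treated array was analysed here. The *tdp1-/-* fish carry frameshift deletions made by CRISPR-Cas9 in the first coding exon of *tdp1*, the alleles SH475 and SH476, either as both alleles together or as SH475 alone. The sources used here do not say which of these combinations went onto the arrays, nor how many embryos each array stands for. The samples are numbered 1 to 3 within each genotype and are biological replicates by their labels. Because the RNA is from whole embryos, fewer skin cells and less RNA per skin cell cannot be told apart.

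Keratins are intermediate filament proteins of epithelial cells. A type I and a type II keratin pair to build each filament, which is anchored to neighbouring cells at desmosomes and to the basement membrane at hemidesmosomes. The larval zebrafish epidermis has an outer layer, the periderm, whose surface carries microridges, over a layer of basal keratinocytes that need the transcription factor Tp63, with ionocytes and mucous cells set between them. Grainyhead-like factors direct the barrier genes of epithelia, and Foxi3 factors specify ionocytes.

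Values are log2 intensities after RMA (robust multi-array average, which corrects background, normalizes by quantiles and summarises probes), and every difference is *tdp1-/-* minus *tdp1WT* on the log2 scale. Array medians over all 75212 clusters lay between 4.66 and 4.87, and arrays correlated at r of 0.969 to 0.988. The targeted gene *tdp1* measured 5.59, 5.34 and 5.85 in *tdp1WT* and 5.18, 5.17 and 5.24 in *tdp1-/-* embryos, 1.32-fold lower. Its deletions are only a few bases long, so its probes need not report them. A gene is called lower or higher below when limma's moderated test gave an unadjusted p under 0.05 and the fold change was over 1.2, the study's threshold. By this rule *tdp1* was called lower. An unadjusted p under 0.05 was found for 3.57% of the clusters, which is below the share of 0.05 that would pass if none differed. No cluster, or 0.0%, had an adjusted p under 0.05 with limma, and every one of the 38 genes had an adjusted p of 1 after rounding, so the calls rank genes and none survives correction. With 3 arrays a genotype, the smallest two-sided p of an exact permutation test is 0.1. Arrays of the same number deviated together from their genotype means, so the fit was also run with the replicate number as a block.

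Of the 38 skin genes, 6 were called lower in *tdp1-/-* embryos and none higher. These are 15.8%, where 1.04% of all genes were called lower and 0.852% higher. The list was chosen with earlier results of these data known, so its comparisons with all genes here and below are not an independent test. The 6 were the keratins *krt5*, *krt15* and *krt91*, the plakin gene *evpla*, the calcium-binding protein gene *icn2* and the mucous cell gene *agr2*. With the replicate block the count was 11, or 28.9%, against 2.49% of all genes called lower, and none was called higher against 1.55%. The added 5 genes were *krt1-19d*, *ppl*, *pkp3a*, *col17a1a* and *cdh1*. A log2 difference below 0 was found in 32 of the 38, with a median of -0.17, while 51.4% of all genes were below 0 with a median of -0.00. All changes were small, from -0.64 to 0.26, and 25 of the 38 genes had a fold change under 1.2 either way. In 10 genes every *tdp1-/-* array lay below every *tdp1WT* array, against 4.08% of all genes, and in *krt95* every one lay above, against 3.64%. Among the genes with a mean log2 value of at least 5 in the same fit, 28 of 32 skin genes had a difference below 0, against 52.9%, and 6 were called lower against 1.02%. When the fit was run on those brighter clusters alone, 8 were called lower, with *ppl* and *cdh1* added, against 1.28%. Of the 6 dimmer skin genes 4 had a difference below 0 and none was called.

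**Figure D1:**
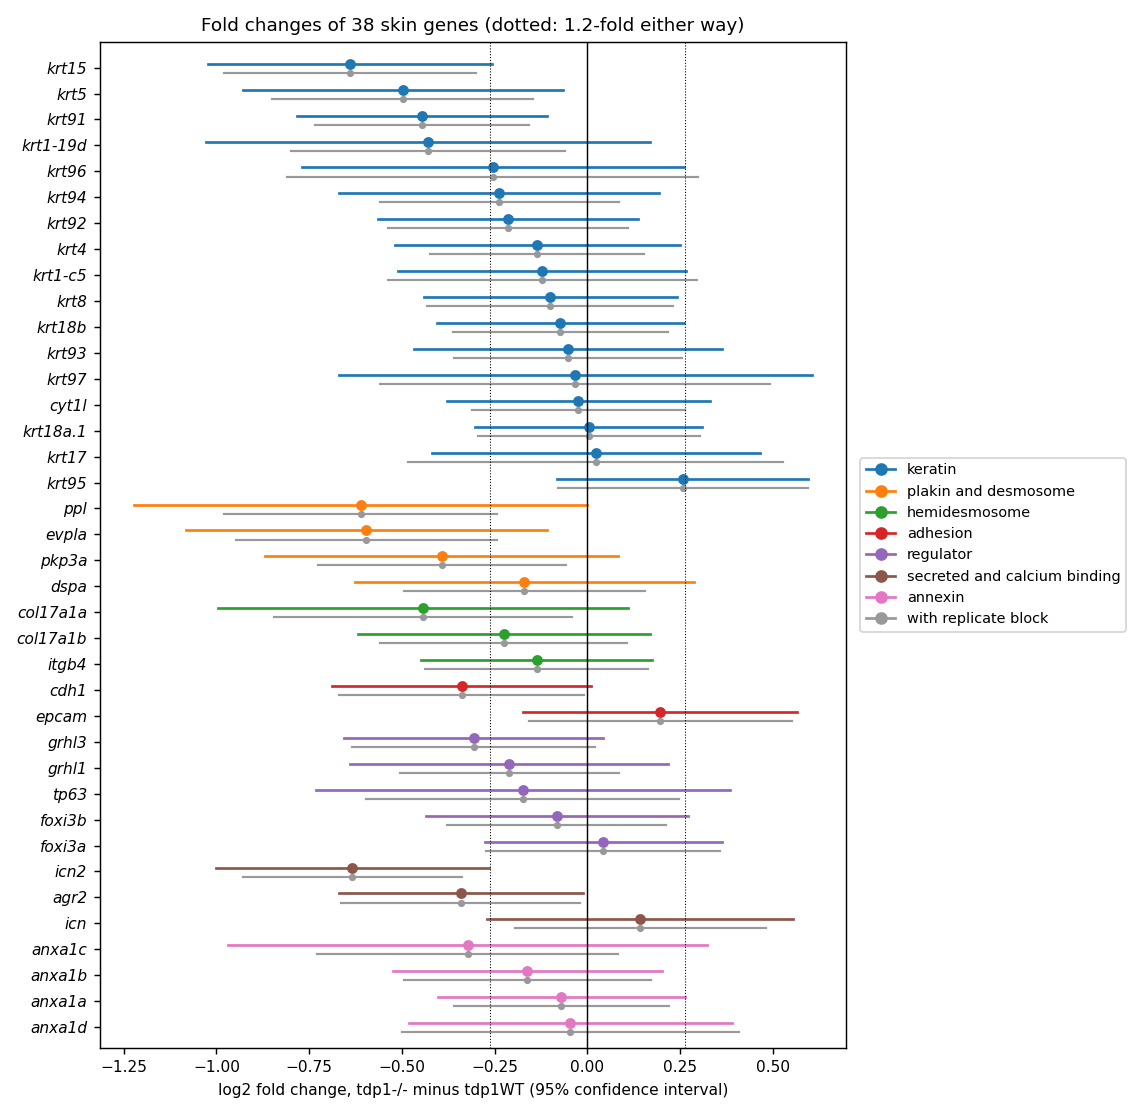
Log2 fold change (*tdp1-/-* minus *tdp1WT*, x axis) of each of the 38 skin genes (y axis), coloured by role, with the 95% confidence interval of limma's fit and, in grey, of the fit with the replicate block. The estimates run from -0.64 (*krt15*) to 0.26 (*krt95*), 32 of them are below 0, and the dotted lines mark a 1.2-fold change.

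**Figure D2:**
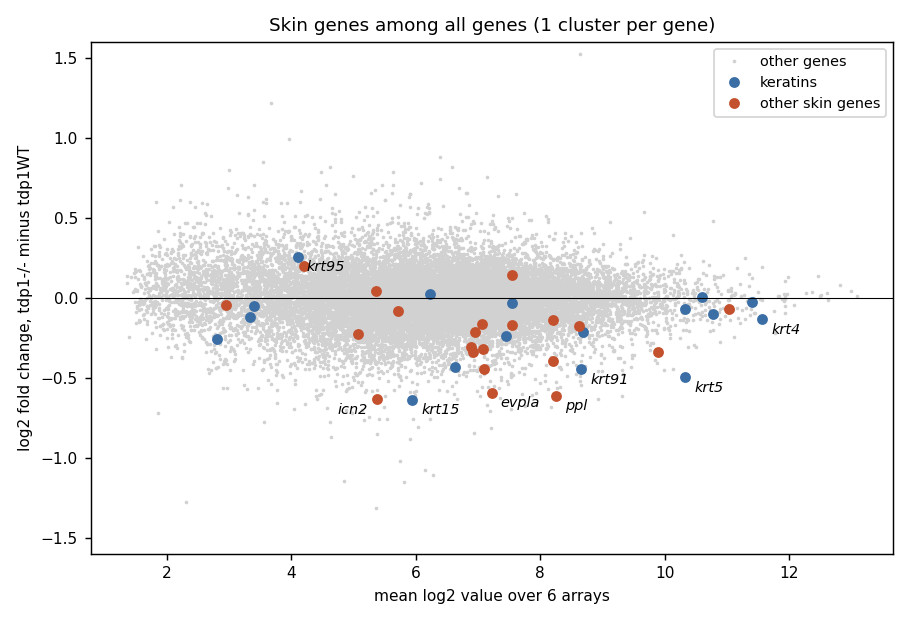
Log2 fold change (*tdp1-/-* minus *tdp1WT*, y axis) against the mean log2 value over the 6 arrays (x axis) for the brightest cluster of each of 19260 genes, with the 17 keratins and 21 other skin genes in colour. Of the skin genes with a mean of at least 5, 28 of 32 sit below the line at 0, and of the 6 dimmer ones 4 do.

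Among the keratins, 3 of 17 were called lower, 17.6% against 1.04% of all genes. With the block 4 were, 23.5% against 2.49%. The difference was below 0 in 14 of them, with a median of -0.12. The keratin with the largest drop was *krt15*, a type I keratin that marks basal keratinocytes in mammals, with 6.29, 6.20 and 6.31 in *tdp1WT* and 5.85, 5.37 and 5.66 in *tdp1-/-* embryos. All 3 *tdp1-/-* arrays lay below the lowest *tdp1WT* array, and the arrays of replicate 2 were the lowest of their genotype. The gene fell 1.56-fold (log2 fold change -0.64, 95% CI -1.02 to -0.26).

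The type II keratin *krt5* read 10.68, 10.47 and 10.58 in *tdp1WT* and 10.26, 9.73 and 10.24 in *tdp1-/-* embryos. The groups did not overlap, but *tdp1-/-* replicate 2 stood well below the other *tdp1-/-* arrays. The group means went from 10.58 ± 0.10 to 10.08 ± 0.30 (SD, n = 3), a 1.41-fold drop with a 95% CI of -0.93 to -0.07 on the log2 scale. Without *tdp1-/-* replicate 2 *krt5* was no longer called, and its difference was -0.32.

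The keratin *krt91* measured 8.998, 8.81 and 8.85 in *tdp1WT* and 8.59, 8.34 and 8.39 in *tdp1-/-* embryos. Again the groups did not overlap, and its pairs differed by nearly the same amount, -0.40, -0.47 and -0.47 for replicates 1, 2 and 3. It was 1.36-fold lower (log2 fold change -0.45, 95% CI -0.78 to -0.11). A second, dimmer cluster of *krt91* had a difference of -0.33 (95% CI -0.90 to 0.24) and was not called.

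The type I keratin *krt1-19d* was called lower with the replicate block alone. It read 7.17, 6.31 and 7.06 in *tdp1WT* and 6.51, 6.13 and 6.60 in *tdp1-/-* embryos. The groups overlapped, since *tdp1WT* replicate 2 lay below *tdp1-/-* replicates 1 and 3, while each *tdp1-/-* array was below the *tdp1WT* array of its own number. The difference of -0.43 had a 95% CI of -1.03 to 0.17 without the block and of -0.80 to -0.06 with it.

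None of the keratins of the periderm and of simple epithelia described next was called. Values of whole embryos do not show in which layer a gene was expressed, so no contrast between layers is drawn. The plakin gene *evpla*, tied below to the periderm, was called lower. The gene *krt4*, whose promoter is widely used to label the outer epidermal layer, measured 11.72, 11.45 and 11.72 in *tdp1WT* and 11.62, 11.27 and 11.60 in *tdp1-/-* embryos. The groups overlapped and the difference was -0.14 (95% CI -0.52 to 0.25). The gene *cyt1l*, related to the enveloping layer keratin *cyt1*, measured 11.46, 11.26 and 11.55 in *tdp1WT* and 11.45, 11.25 and 11.50 in *tdp1-/-* embryos, and within each numbered pair the values were close to equal. Its difference was -0.02 (95% CI -0.38 to 0.33). A further periderm keratin, *krt17*, read 6.43, 6.10 and 6.12 in *tdp1WT* and 5.99, 6.19 and 6.54 in *tdp1-/-* embryos. It had no common direction, as its pairs differed by -0.44, 0.09 and 0.42, and the estimate was 0.02 (95% CI -0.42 to 0.47).

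The partners Krt8 and Krt18, a type II and a type I keratin, form the filaments of simple epithelia. The differences were -0.10 for *krt8* (95% CI -0.44 to 0.24), 0.00 for *krt18a.1* (95% CI -0.30 to 0.31) and -0.07 for *krt18b* (95% CI -0.41 to 0.26). The interval of *krt18a.1* overlaps those of *krt5*, *krt15* and *krt91*, and the differences between keratins were not tested. Of the remaining keratins, *krt92* had a difference of -0.21 with groups that did not overlap, and *krt94* one of -0.24. The gene *krt97* varied most within a genotype among the keratins, at 7.79, 7.47 and 7.40 in *tdp1WT* and 7.92, 6.92 and 7.73 in *tdp1-/-* embryos. Its lowest array was *tdp1-/-* replicate 2, and the difference was -0.03 (95% CI -0.67 to 0.61).

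The other 4 keratins were dim, with mean log2 values under 5. They include *krt95*, the largest difference upward among all 38 genes, with 3.97, 4.01 and 3.94 in *tdp1WT* and 4.07, 4.23 and 4.40 in *tdp1-/-* embryos. All *tdp1-/-* arrays lay above all *tdp1WT* arrays, but the difference of 0.26 was not called (95% CI -0.08 to 0.60). The others had differences of -0.05 (*krt93*), -0.26 (*krt96*) and -0.12 (*krt1-c5*), and none was called.

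**Figure D3:**
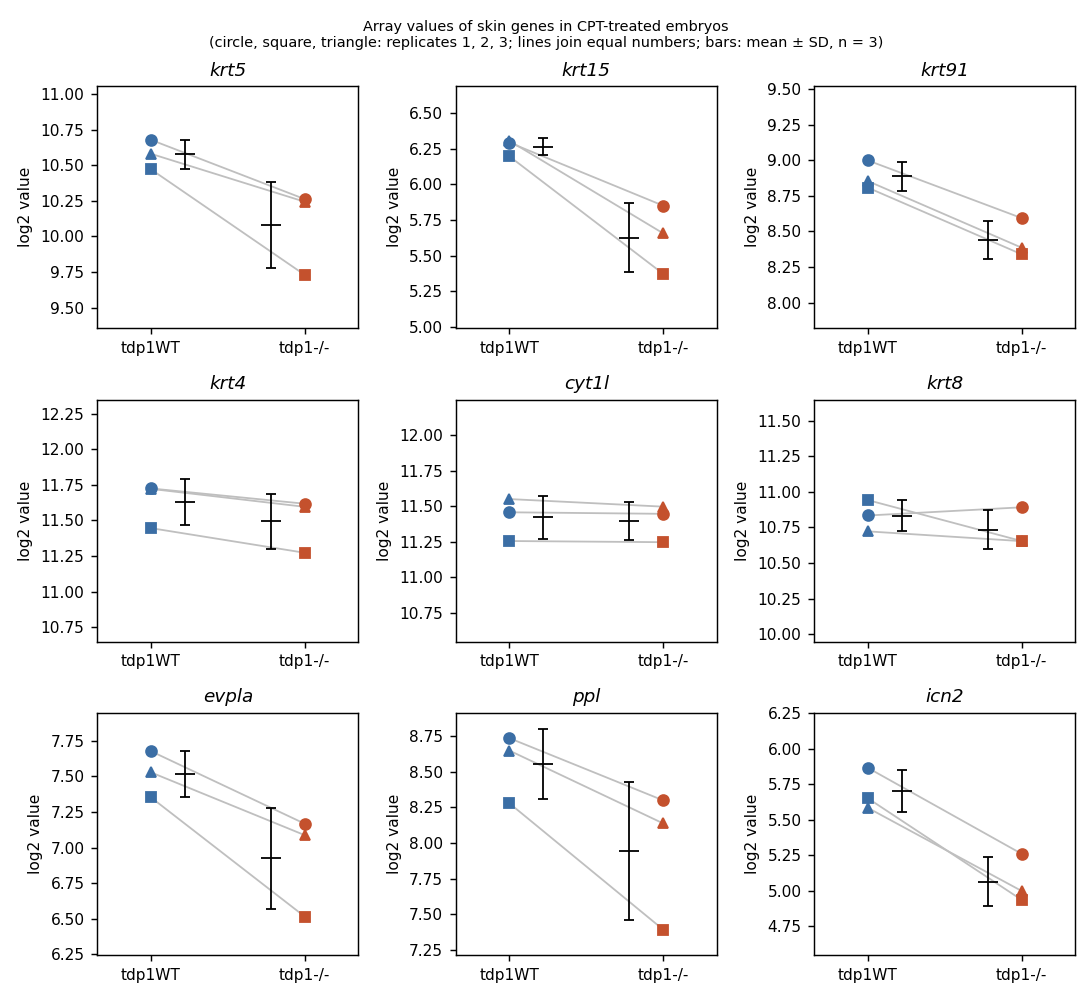
Log2 values of 9 skin genes on each array (y axis, scaled per gene) in *tdp1WT* and *tdp1-/-* embryos (x axis), with circles, squares and triangles for replicates 1, 2 and 3, lines joining equal numbers, and bars for mean ± SD (n = 3). In *krt5*, *krt15*, *krt91*, *evpla* and *icn2* the genotypes do not overlap, whereas in *krt4*, *cyt1l* and *krt8* they do, and in *ppl* they overlap by a narrow margin (8.28 and 8.30).

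Keratin genes lie in clusters along the zebrafish chromosomes, and their order was taken from the RefSeq annotation of assembly GRCz12tu. In that order the called and uncalled keratins lie side by side. On chromosome 19 the order is *krt1-19d*, *krt1-19e*, *krt92*, *cyt1l*, *krt17* and *krt91*, with differences of -0.43, -0.33, -0.21, -0.02, 0.02 and -0.45. The called gene *krt91* thus lies next to *krt17*, whose estimate is near 0. On chromosome 11, *krt15* lies between *krt98* (-0.24) and *krt99* (-0.02), where *krt98* is dim, with a mean log2 value of 3.91. On chromosome 23 the order is *krt5*, *krt8*, *krt18a.1* and *krt18a.2*, with differences of -0.50, -0.10, 0.00 and 0.26.

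Outside the list, 5 keratins had a symbol beginning with krt, namely *krt1-19e*, *krt18a.2*, *krt98*, *krt99* and *krt222*. None of them was called, and keratins under other kinds of symbol were not sought. RefSeq gives *krtt1c19e* as another name of *krt1-19e*, so that cluster may measure the listed gene *krtt1c19e*, whose promoter labels basal keratinocytes. It read 10.18, 9.66 and 9.94 in *tdp1WT* and 9.64, 9.55 and 9.61 in *tdp1-/-* embryos. The groups did not overlap, and the difference was -0.33 (95% CI -0.72 to 0.07). Keratin genes of 1 locus can be near-identical and may share probes, which was not analysed here.

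**Figure D4:**
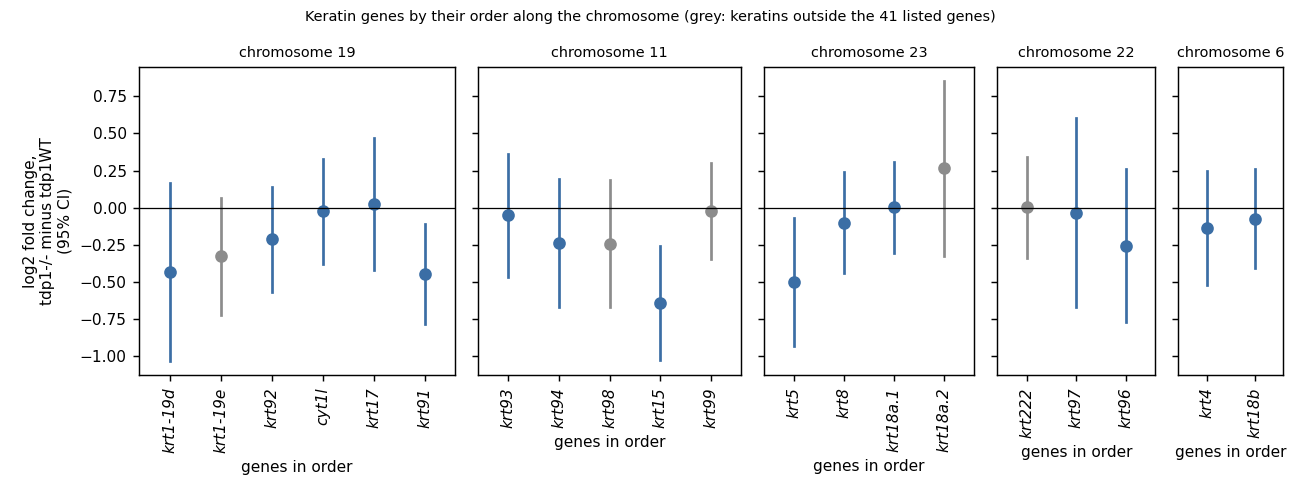
Log2 fold change (*tdp1-/-* minus *tdp1WT*, y axis) with its 95% confidence interval for keratin genes in their order along chromosomes 19, 11, 23, 22 and 6 (x axis, not to scale), listed keratins in blue and other keratins in grey; *krt95*, 18 coding genes from its nearest neighbour here, and *krt1-c5* are left out. Called genes (*krt91*, *krt15*, *krt5*) stand next to genes that were not called (*krt17* at 0.02, *krt98* at -0.24, *krt99* at -0.02, *krt8* at -0.10).

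Of the 21 other skin genes, 3 were called lower, 14.3% against 1.04% of all genes. With the block 7 were, 33.3% against 2.49%. The difference was below 0 in 18 of them, with a median of -0.21. The 4 plakin and desmosome genes were all below 0 in every numbered pair, where 16.8% of all genes were. Envoplakin and periplakin are plakins that link keratin filaments to the cell cortex, build the cornified envelope of mammals and are needed for the microridges of the zebrafish periderm. The envoplakin gene *evpla* measured 7.68, 7.35 and 7.53 in *tdp1WT* and 7.17, 6.52 and 7.09 in *tdp1-/-* embryos. Here too the groups did not overlap, with *tdp1-/-* replicate 2 lowest by a wide margin. The gene fell 1.51-fold (log2 fold change -0.60, 95% CI -1.08 to -0.11). Its second cluster had a difference of -0.42 (95% CI -0.84 to 0.00), called with the block alone.

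The periplakin gene *ppl* read 8.74, 8.28 and 8.65 in *tdp1WT* and 8.30, 7.39 and 8.14 in *tdp1-/-* embryos. The groups overlapped by 1 array, as *tdp1WT* replicate 2 lay just under *tdp1-/-* replicate 1. The difference of -0.61 was the largest among the plakin and desmosome genes. It narrowly missed the call, and with the block its 95% CI was -0.98 to -0.24 and it was called lower. The second cluster of *ppl* was called lower in both fits, with a difference of -0.50 (95% CI -0.97 to -0.03). The call of the second cluster held in 2 of the 6 cases with an array left out. In both *evpla* and *ppl*, each of the clusters gave a difference below 0.

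The plakophilin *pkp3a*, an armadillo protein of the desmosome plaque, measured 8.47, 8.18 and 8.57 in *tdp1WT* and 8.29, 7.66 and 8.09 in *tdp1-/-* embryos. Each *tdp1-/-* array lay below its partner, although the groups overlapped. The difference was -0.39, called with the block (95% CI -0.73 to -0.06) and not without it (95% CI -0.87 to 0.08). The gene *dspa*, for desmoplakin, which ties keratin filaments to the desmosome, had a difference of -0.17 (95% CI -0.63 to 0.29).

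The 3 hemidesmosome genes were all below 0 in all 3 pairs, where 16.8% of all genes were, and none was called without the block. Collagen XVII spans the membrane of basal keratinocytes, and its gene *col17a1a* measured 7.60, 7.09 and 7.26 in *tdp1WT* and 7.05, 6.42 and 7.15 in *tdp1-/-* embryos. The groups overlapped through *tdp1-/-* replicate 3. The difference was -0.44, with a 95% CI of -1.00 to 0.11, and was called with the block, where the interval was -0.85 to -0.04. The paralog *col17a1b* (-0.22, 95% CI -0.62 to 0.17) and the integrin subunit gene *itgb4* (-0.14, 95% CI -0.45 to 0.17) were not called. In *itgb4* the groups did not overlap, and the *tdp1-/-* arrays had an SD of 0.011.

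Of the adhesion genes, *cdh1* encodes E-cadherin, the cadherin of epithelial adherens junctions. Its values were 10.10, 10.03 and 10.03 in *tdp1WT* and 9.85, 9.50 and 9.80 in *tdp1-/-* embryos. All *tdp1-/-* arrays lay below all *tdp1WT* arrays. The difference of -0.34 was called with the block (95% CI -0.67 to -0.01) and not without it (95% CI -0.69 to 0.01). The epithelial adhesion molecule gene *epcam* was dim and read 4.09, 4.12 and 4.10 in *tdp1WT* and 4.04, 4.37 and 4.47 in *tdp1-/-* embryos. Its *tdp1WT* arrays lay within the range of the *tdp1-/-* arrays, and its difference, 0.20 (95% CI -0.17 to 0.57), was the largest upward among the other skin genes.

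No developmental regulator was called. The basal layer regulator *tp63* measured 8.74, 8.52 and 8.85 in *tdp1WT* and 8.89, 8.03 and 8.67 in *tdp1-/-* embryos. The highest and the lowest value both came from *tdp1-/-* embryos, and the difference was -0.17 (95% CI -0.73 to 0.38). The grainyhead-like gene *grhl3* read 7.07, 7.02 and 7.04 in *tdp1WT* and 6.90, 6.53 and 6.79 in *tdp1-/-* embryos. The groups did not overlap, and the difference was -0.31 (95% CI -0.65 to 0.04), while that of *grhl1* was -0.21 (95% CI -0.64 to 0.22). Both genes lie on chromosome 17, which also carries *tdp1*, with 218 coding genes between *grhl3* and *tdp1* and 310 between *grhl1* and *tdp1*.

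The ionocyte factor *foxi3a* measured 5.34, 5.32 and 5.34 in *tdp1WT* and 5.43, 5.47 and 5.23 in *tdp1-/-* embryos, with a difference of 0.04 (95% CI -0.28 to 0.36). Its paralog *foxi3b* read 5.81, 5.59 and 5.86 in *tdp1WT* and 5.80, 5.52 and 5.70 in *tdp1-/-* embryos, with a difference of -0.08 (95% CI -0.44 to 0.27). In both genes the groups overlapped.

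The gene *icn2* encodes ictacalcin 2, a small calcium-binding protein of the S100 family. It measured 5.86, 5.65 and 5.58 in *tdp1WT* and 5.26, 4.94 and 5.00 in *tdp1-/-* embryos. All *tdp1-/-* arrays lay below all *tdp1WT* arrays, and the 3 pairs differed by -0.60, -0.71 and -0.58. With a 1.55-fold drop (log2 fold change -0.63, 95% CI -1.00 to -0.26), it had the largest change of the other skin genes. Next to *icn2* on chromosome 16 lies its paralog *icn*, with 7.71, 7.44 and 7.26 in *tdp1WT* and 7.80, 7.43 and 7.61 in *tdp1-/-* embryos. The groups overlapped there, and the difference was 0.14 (95% CI -0.27 to 0.56). The intervals of the paralogs overlap at their edges and their difference was not tested.

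The gene *agr2* encodes a protein disulfide isomerase that mucus-secreting cells use to fold mucins. It read 7.17, 7.09 and 7.02 in *tdp1WT* and 6.68, 6.90 and 6.67 in *tdp1-/-* embryos. The groups did not overlap, and here *tdp1-/-* replicate 2 was the highest *tdp1-/-* array. The gene fell 1.27-fold (log2 fold change -0.34, 95% CI -0.67 to -0.01), but its second cluster had a difference of -0.07 (95% CI -0.53 to 0.38). Annexin A1 genes, whose calcium-dependent proteins bind membrane phospholipids, gave -0.07 (*anxa1a*), -0.16 (*anxa1b*), -0.32 (*anxa1c*) and -0.05 (*anxa1d*), and none was called. The largest of these, *anxa1c*, read 6.93, 6.98 and 7.84 in *tdp1WT* and 6.90, 6.67 and 7.21 in *tdp1-/-* embryos. The groups overlapped, and *tdp1WT* replicate 3 stood above the other 5 arrays.

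Within the same-numbered pairs, 24 of the 38 genes (9 keratins and 15 others) were lower in *tdp1-/-* in all 3 pairs, or 63.2%, where 16.8% of all genes were. All 38 were read on the same arrays, so they are not separate observations of the genotype. The median difference of the 38 genes was -0.13 in pair 1, -0.30 in pair 2 and -0.12 in pair 3, while the median of all genes was -0.02, 0.01 and 0.00. Pair 2 held the largest drop in 24 of the 38 genes, and in 6421 of all 19260 genes. The array *tdp1-/-* replicate 2 was the lowest of all 6 in 24 genes (12 keratins and 12 others), 63.2%, against 26.5% of all genes. Without that array the median was -0.05 for keratins and -0.14 for the other skin genes. Then 29 of the 38 differences were below 0, against 9151 of 19260 for all genes. With it left out, 4 genes were called lower (*krt15*, *krt91*, *icn2* and *agr2*) against 1.04% of all genes. Without *tdp1WT* replicate 1, 2 genes were called (*krt15* and *icn2*), against 0.493%, and without *tdp1WT* replicate 3, 3 genes were (*krt15*, *krt91* and *icn2*), against 0.556%. Without *tdp1-/-* replicate 1 the count was 9, against 1.46%, with *agr2* lost and *ppl*, *pkp3a*, *cdh1* and *grhl3* added. Without *tdp1WT* replicate 2 it was 7 and without *tdp1-/-* replicate 3 it was 5, each against 1.13%, again with *agr2* lost. The genes *krt15* and *icn2* were called lower whichever array was left out, *krt91* in 5 of the 6 cases, *krt5* and *evpla* in 3 and *agr2* in 1.

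**Figure D5:**
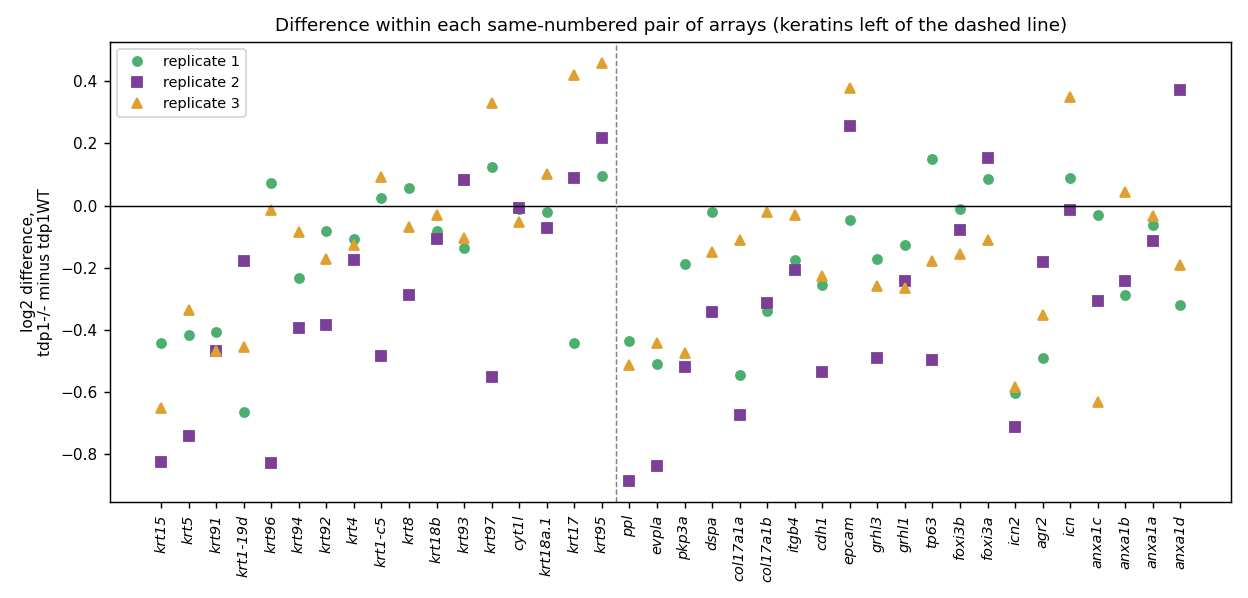
Log2 difference (*tdp1-/-* minus *tdp1WT*, y axis) within the same-numbered pairs of arrays for each of the 38 skin genes (x axis; keratins left of the dashed line), with a point for each of replicates 1, 2 and 3. Pair 2 (squares) gives the largest drop in 24 of the 38 genes, and in 6421 of all 19260 genes. Its median over the 38 genes is -0.30, against -0.13 and -0.12 for pairs 1 and 3.

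Wider lists of skin genes were also chosen with earlier results of these data known. They held no members of the list above and gave 66 further genes in 6 lists. Of these, 47 had a difference below 0, with a median of -0.09, and 2 were called lower and none higher, where 1.04% and 0.852% of all genes were, or with the block 5 lower and 1 higher, where 2.49% and 1.55% of all genes were. No gene was called among 9 desmosome genes, 12 genes of the hemidesmosome and basement membrane, and 5 genes listed for mucous cells, of which 6, 9 and 3 were below 0. Lower in all 3 pairs were 3, 3 and 1 of them, where 16.8% of all genes were. Among 14 genes of the periderm and envelope, 12 were below 0 and *capn9*, a calpain protease, was called lower. It measured 7.64, 7.27 and 7.72 in *tdp1WT* and 7.11, 6.19 and 7.19 in *tdp1-/-* embryos. The groups did not overlap, and the gene fell 1.63-fold (log2 fold change -0.71, 95% CI -1.38 to -0.04). It was not called without *tdp1WT* replicate 1 (-0.66), *tdp1WT* replicate 3 (-0.62) or *tdp1-/-* replicate 2 (-0.39).

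Among 11 ionocyte genes, 6 were below 0 and *rhcga*, an ammonia transporter of ionocytes that secrete acid, was called lower. It read 7.79, 7.21 and 7.82 in *tdp1WT* and 6.71, 6.64 and 7.04 in *tdp1-/-* embryos. Its groups did not overlap, and it fell 1.76-fold (log2 fold change -0.81, 95% CI -1.31 to -0.32). It was called whichever array was left out, with differences from -1.01 to -0.71. The related transporter *rhbg* was called lower with the block alone (-0.62, 95% CI -1.11 to -0.12 with the block). Of 15 epidermal regulators, 11 were below 0 and none was called. With the block, the grainyhead-like gene *grhl2a* (-0.42) and the epithelial splicing regulator *esrp1* (-0.32) were called lower. The gene *foxi1* of the same list was then called higher at 0.46 (95% CI 0.17 to 0.75 with the block).

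Markers of other cell types were read beside the skin genes. Of all genes, 51.4% were below 0, 26.5% were lowest on *tdp1-/-* replicate 2 and 1.04% were called lower. Of 8 dermis and fin fold genes, 7 were below 0, with a median of -0.15, none was called, and 7 were lowest on *tdp1-/-* replicate 2. The log2 of their summed intensity ranged from 11.77 to 12.10 in *tdp1WT* and from 11.47 to 12.004 in *tdp1-/-* embryos. For the 17 keratins it ranged from 13.66 to 13.79 and from 13.45 to 13.70, so the genotypes overlapped. For the 21 other skin genes it ranged from 12.61 to 12.63 and from 12.30 to 12.47, without overlap. For the 38 skin genes together it ranged from 14.23 to 14.33 and from 13.99 to 14.21, also without overlap. For all genes it ranged from 21.45 to 21.48 and from 21.44 to 21.47, with overlap. All 5 neuron genes were below 0 (median -0.08, summed 11.27 to 11.35 and 11.15 to 11.30), and none was called. Of 7 intestine genes 5 were below 0, and of 6 muscle genes 4, with medians of -0.06 and -0.05 and no call. The heme synthesis gene *alas2* of red cells was called lower at -0.47 (95% CI -0.95 to -0.00), with the other of 2 red cell genes also below 0. That call was lost with the block and in 4 of the 6 cases with an array left out. With the block the liver gene *serpina1* was called higher at 0.53 (95% CI 0.07 to 0.99 with the block), 1 of 3 liver genes. Of all genes, 1.55% were called higher with the block. The part of these cell types in the skin gene differences was not tested.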

How the data were processed

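RNA of whole CPT-treated embryos was labelled with the Affymetrix WT plus protocol by the authors, and the arrays were processed with RMA in the Transcriptome Analysis Console. The deposited values are log2 intensities, 1 per transcript cluster and array. The genome build behind the clusters is not given in the sources used here. Genotype and replicate number came from the labels. The members and lists were chosen with earlier results of these data known.

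From these values, limma 3.58.1 in R 4.3.3 (lmFit and eBayes) was fitted over all 75212 clusters, with Benjamini-Hochberg adjustment over the whole table. A check on simulated data held larger changes than those of the listed genes and no pairing of arrays. It therefore does not cover calls of the size reported here. Lists were read by counts, medians and per-array values in Python 3.11.15. Deviations of same-numbered arrays from their genotype means correlated at r of 0.203, 0.216 and 0.29, each the highest for its number, so the numbers were taken to pair the arrays, and the block is given where it changes a call. Over the listed genes alone the correlations were higher, at 0.42, 0.42 and 0.47. Every member is named, with all 6 values for those called in either fit, the largest change each way in a role group and the defining markers, and of the wider lists the members called in either fit. The alternatives were another normalization, array weights, a trended and robust prior, a filter on dim clusters, duplicate rows kept once, the mean of a gene's clusters, no fold threshold and leaving out arrays. RefSeq gave gene names and order only, and no sequences were analysed here. The number of arrays limits the precision.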

Additional observations from a re-analysis of the deposited data

How the results depend on the processing

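The count of keratins called lower, 3, was from 1 to 4 when single arrays were left out (1 without *tdp1WT* replicate 1), and that of the other skin genes, 3, was from 1 to 6 (1 without *tdp1WT* replicate 1 and without *tdp1WT* replicate 3, 6 without *tdp1-/-* replicate 1). Of all genes, 1.04% were called lower with all arrays and from 0.493% to 1.46% with single arrays left out. With the replicate block 7 other skin genes were called, where 2.49% of all genes were called lower. With array weights, with the trended and robust prior and with the filter on a mean log2 of at least 5, each called 5. The shares of all genes called lower were then 1.16%, 1.14% and 1.28%. Over the whole table, 2688 clusters were called, 4830 with the replicate block, 1256 with the filter on dim clusters, which tests fewer of them, and from 1881 to 5004 with single arrays left out (1881 without *tdp1WT* replicate 1, 5004 without *tdp1-/-* replicate 1). In alternatives added after seeing the data, the replicate block without pair 1, 2 or 3 called 5036, 4303 and 3630. Scaling moved the split of calls: of all clusters, 970 were lower and 1718 higher as deposited, 1548 and 1566 after quantile normalization. Of genes, 200 were lower and 164 higher as deposited, 314 and 160 after quantile normalization and 253 and 130 after median centring. The cause of these shifts was not tested. The block changed no calls of single members other than the 5 it added.

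Sign changes were found only in genes that were not called. Of the single-gene values under an alternative, 568 kept their direction and their side of the thresholds, 25 gained a call, 16 lost one and 31 changed sign. The difference of *krt18a.1* was -0.014 after quantile normalization, -0.018 after median centring and -0.0019 with array weights, where *krt17* was -0.021 and *krt93* 0.0055. With single arrays left out, *krt17* ranged from -0.13 to 0.15, *krt93* from -0.15 to 0.075, *krt97* from -0.23 to 0.27, *krt18a.1* from -0.037 to 0.048, *krt1-c5* from -0.20 to 0.022, *cyt1l* from -0.11 to 0.051, *tp63* from -0.36 to 0.077, *foxi3a* from -0.0043 to 0.12 and *anxa1d* from -0.19 to 0.069. With the block and without pair 1, *anxa1d* was 0.091. Without pair 2, *krt17* was -0.010, *krt96* 0.030, *krt97* 0.23, *krt1-c5* 0.059 and *foxi3a* -0.012. Without pair 3, *krt17* was -0.18, *krt18a.1* -0.045 and *anxa1d* 0.027.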
